A study of Mus musculus with 8 samples.

Results

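Rps26 and its processed copies, a group of 4 gene rows, were followed through RNA sequencing of adult mouse testis. The group was defined by sequence kinship to Rps26 and was chosen by the level of 1 of its rows, Rps26-ps1, in the same comparison that is described here. It holds the parent gene Rps26 (ENSMUSG00000025362) and the copies Rps26-ps1 (ENSMUSG00000059775), Gm6654 (ENSMUSG00000084291) and Gm7392 (ENSMUSG00000112908), 4 of 56748 gene rows. Rps26 and Rps26-ps1 passed the filter on low counts (2 of 4 rows), Gm6654 and Gm7392 did not.

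Rps26 encodes eS26, a protein of the small (40S) ribosomal subunit that sits where messenger RNA leaves the ribosome. The chaperone Tsr2 carries it to the maturing subunit late in ribosome assembly. Ribosomal protein genes have left many processed copies in mammalian genomes. Such a copy arises when a spliced messenger RNA is reverse transcribed and inserted elsewhere, so it lacks the introns of its parent and, as a rule, its promoter.

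The libraries compared were 4 from testes of the genotype Ak9-/-, which lack the adenylate kinase gene Ak9 by their labels, and 4 from wild-type testes. All were from adult animals, and no treatment, strain or exact age is given for any of them. The labels do not state how the allele was made or whether each library is a separate animal, so the p-values rest on a spread between libraries that may be technical. Total counts ran from 18062780 to 24415587 per library. Ak9 RNA did not follow the labels in every library. Its level in CPM (counts relative to the size of each library, adjusted between libraries by the TMM method) was 69.3, 116, 101 and 40.6 in the libraries labelled knockout 1 to 4. Wild types 1 to 4 had 108, 115, 122 and 107 CPM, a log2 difference of -0.47 (SE 0.25). Whether this allele lowers Ak9 RNA is not stated, so these levels cannot check the genotype of a library. The group is called labelled knockout throughout.

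The libraries labelled knockout also differed among themselves. Pairs of them had Spearman correlations over genes of 0.957 to 0.977, where pairs of wild types had 0.991 to 0.993. Markers of all testis cell types examined were detected. Labelled knockout 3 stood apart with a summed level of 7605 CPM for 7 elongating spermatid markers, against 14419 to 18550 CPM in the other labelled knockouts and 12065 to 15299 CPM in wild types, and with 219 CPM summed over 10 epididymis markers against 7.45 to 9.73 CPM in wild types. Nearly all of that sum came from Crisp1 (185 CPM) and Adam7 (26.2 CPM). Rnase9 (2.17 CPM), Lcn5 (0.444 CPM) and Lcn9 (0.148 CPM) also lay above every wild type. Gpx5 and Cst11 were at 0 and Lcn8 at 0.0493 CPM. Rnase10 (3.11 CPM) and Defb21 (1.18 CPM) lay below every wild type, with wild-type means of 5.71 and 1.88 CPM. Labelled knockout 4 had 38.0 CPM for the epididymis markers, 24.4 CPM of it from Crisp1, and 812 CPM for 7 Leydig cell markers. For these Leydig cell markers, labelled knockouts 1 to 3 had 1537, 1428 and 1780 CPM, and wild types 1617 to 1927 CPM. Labelled knockouts 1 and 2 thus also lay below every wild type in this sum. Labelled knockouts 3 and 4 are the libraries with the lowest Rps26 levels below, and the part of cell composition in the Rps26 values was not tested. In bulk tissue, fewer cells of a type and less RNA per cell cannot be told apart.

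How far the 4 rows can be told apart by sequence was read from GENCODE M21 transcripts, an annotation on another build (GRCm38) than the one the counts were made on. Rps26 lies on chromosome 10 and has 4 exons, a messenger RNA of 681 bases and a coding sequence of 348 bases for 115 residues. Rps26-ps1 is annotated as a transcribed processed pseudogene, a single exon of 449 bases on chromosome 8. It matches the spliced Rps26 messenger RNA at 425 of 429 aligned bases (99.1%) and goes on past the match with 20 A, the remnant form of a poly(A) tail. Gm6654 on chromosome 6 and Gm7392 on chromosome 12 are processed pseudogenes of 348 and 345 bases, each with 9 differences from the Rps26 coding sequence (97.4% identity).

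Of the 4 differences of Rps26-ps1, 2 lie in the coding part and 2 in the stretch copied from the 3′ untranslated region. The coding ones, C30T and G270A (the base of Rps26, its position counted from 1 at the first base of the start codon, then the base of the copy), change no residue, and the reading frame of 115 residues has 0 early stop codons. The other differences of this copy are G21A and T31C, counted from the first base after the stop codon. C30T is shared by all 3 copies and G270A by Rps26-ps1 and Gm6654. Gm6654 differs from Rps26 in 2 residues and has 0 early stop codons. Gm7392 differs in 4 codons and has 2 early stop codons, the first at codon 89.

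The first 60 bases of the coding sequence hold the shared difference C30T, and are shown because they give a reader the scale on which reads of these rows must be separated. Capitals mark the 3 positions at which any of the 4 sequences differs from Rps26. Sequences are from GENCODE M21 transcripts, 5′ to 3′.
Rps26: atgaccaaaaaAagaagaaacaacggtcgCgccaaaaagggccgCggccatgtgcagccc
Rps26-ps1: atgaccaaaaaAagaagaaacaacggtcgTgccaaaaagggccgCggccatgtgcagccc
Gm6654: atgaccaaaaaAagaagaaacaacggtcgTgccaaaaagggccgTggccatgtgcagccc
Gm7392: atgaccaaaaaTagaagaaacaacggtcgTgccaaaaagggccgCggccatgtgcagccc

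Bases 241 to 300 are shown because, of the consecutive blocks of 60 bases, they hold the most differences, with 8 positions in capitals. Rps26-ps1 departs from its parent at 1 of them, G270A, which Gm6654 has too and Gm7392 has not. Gm6654 and Gm7392 share T249C and C267A.
Rps26: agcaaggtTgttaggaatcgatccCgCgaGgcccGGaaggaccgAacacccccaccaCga
Rps26-ps1: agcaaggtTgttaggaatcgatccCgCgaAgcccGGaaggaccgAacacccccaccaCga
Gm6654: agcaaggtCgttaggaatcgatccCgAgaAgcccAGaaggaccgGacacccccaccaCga
Gm7392: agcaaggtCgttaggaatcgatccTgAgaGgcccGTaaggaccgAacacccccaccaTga

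**Figure D1:**
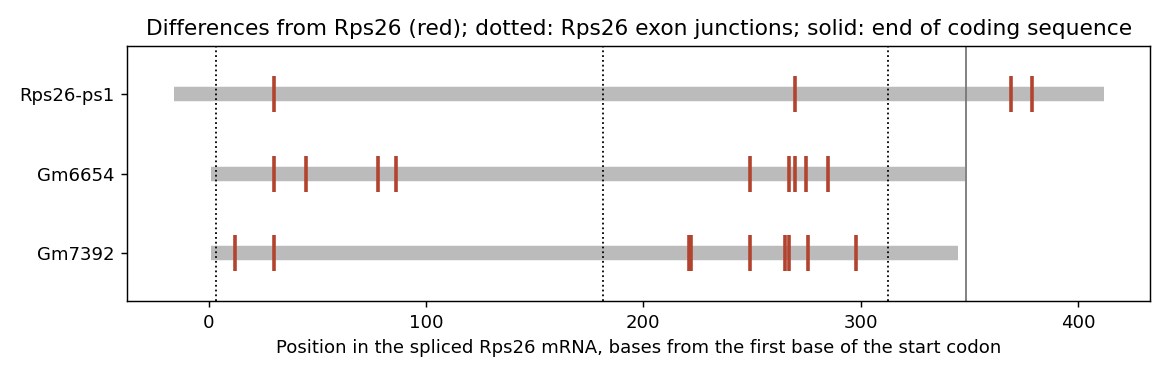
Positions at which Rps26-ps1, Gm6654 and Gm7392 differ from the spliced Rps26 messenger RNA (red), on a horizontal axis in bases from the start codon. Dotted lines are the 3 exon junctions of Rps26 that fall in this stretch and the solid line is the end of the coding sequence; Rps26-ps1 has 4 differences, the other copies 9 each.

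A long stretch of Rps26-ps1 carries no difference at all. Of all 50-base windows of Rps26-ps1, 239 of 380 (62.9%) were identical to spliced Rps26. The share was 140 of 330 (42.4%) for windows of 100 bases and 90 of 280 (32.1%) for windows of 150 bases. With 1 difference allowed, these shares were 91.1%, 89.4% and 84.3%. Among windows of 100 bases, 66.1% spanned a place where Rps26 has an exon junction, so that the same letters lie unbroken in the genome at the copy and are split by an intron at the parent. The read length, the strand setting and the rule for reads that match in more than 1 place were not stated, and their part in the counts below was not tested. A division of reads between the rows leaves the sum of the rows unchanged as long as the reads are counted in one of them, and for this reason sums and shares are given beside the single rows.

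Rps26 was the most abundant member in every library. Its level was 184, 167, 134 and 143 CPM in labelled knockouts 1 to 4, and wild types 1 to 4 had 184, 178, 175 and 179 CPM. Labelled knockouts 2, 3 and 4 lay below all wild types, whereas labelled knockout 1 lay among them. The means were 157 ± 22.6 CPM (SD, n = 4) and 179 ± 3.91 CPM (SD, n = 4), a log2 difference of -0.19 (SE 0.11). The spread within the labelled knockouts was a coefficient of variation of 14.4%, where counting error alone gives 1.78%, and in wild types 2.18%, where it gives 1.62%. The wild types thus scattered little beyond counting error, and the labelled knockouts several times more.

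Rps26-ps1 had a low level in all wild types. It stood at 0.695, 0.539, 0.768 and 0.650 CPM there, from 13, 12, 19 and 13 counts. In labelled knockouts 1 to 4 it stood at 12.5, 13.0, 11.0 and 12.4 CPM, from 277, 270, 222 and 213 counts. The lowest labelled knockout was far above the highest wild type and the groups did not overlap. The means were 12.2 ± 0.888 CPM and 0.663 ± 0.0962 CPM (SD, n = 4 each), an 18.4-fold ratio of means and a log2 difference of 4.19 (SE 0.19). No test is given for this row, since the group was chosen by it.

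The 4 labelled knockouts were alike in this row, although they differed in Rps26, in Ak9 and in their cell markers. The coefficient of variation of Rps26-ps1 was 7.27% in labelled knockouts, where counting error gives 6.38%, and 14.5% in wild types, where it gives 26.5%. With each library left out in turn, the log2 difference ran from 4.10 to 4.28. On a scale per kilobase of transcript, the level of Rps26-ps1 was 27.2 ± 1.98 CPM per kilobase in labelled knockouts and 1.48 ± 0.214 in wild types, and that of Rps26 was 230 ± 33.2 and 263 ± 5.74 (SD, n = 4 each). Per length, the copy stayed well below its parent in both groups.

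The other copies gave almost no counts. Gm6654 had 0 counts in all 8 libraries, a result that 3 counts or fewer could give, or at most 0.123 to 0.166 CPM depending on the library, for counting error only. These limits use the total counts without the TMM adjustment, unlike the other CPM values. Gm7392 had 4, 3, 2 and 5 counts in labelled knockouts 1 to 4, and wild types 1 to 4 had 5, 1, 5 and 5, or 0.179 ± 0.0822 and 0.191 ± 0.101 CPM (SD, n = 4 each). Gm6654 lies within an exon of Med21 on the other strand, as described below. Whether reads that overlap 2 rows were counted is not given, so the 0 and its limit hold for counted reads only, and the part of the overlap in this 0 was not tested.

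**Figure D2:**
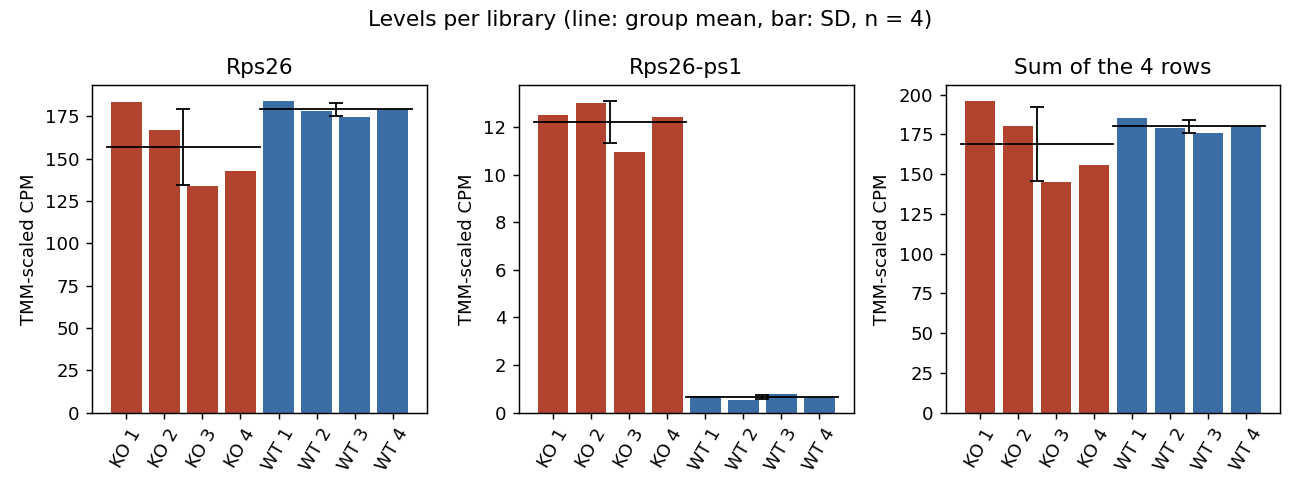
Levels of Rps26, Rps26-ps1 and the sum of the 4 rows in TMM-scaled CPM (vertical axes, from 0) for each library; KO is labelled knockout, WT wild type, lines are group means and error bars SD (n = 4). Rps26-ps1 lies between 11.0 and 13.0 CPM in all KO libraries and at 0.768 CPM or lower in all WT libraries, while the sums overlap.

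Over the whole table, 4 of 21805 tested genes (0.0183%) were higher in the libraries labelled knockout by edgeR's quasi-likelihood test at an adjusted p under 0.05, and 0 (0%) were lower. At an unadjusted p under 0.05, 272 genes were higher and 390 lower, and DESeq2 called 23 and 23. The edgeR calls depended on the libraries entered, with 9 higher and 24 lower without labelled knockout 1, 23 and 12 without labelled knockout 3, and 14 and 19 without labelled knockout 4. Among members, 1 of the 2 tested rows, Rps26-ps1, was among the 4, from which nothing is read because the choice used this contrast. Every labelled knockout lay above every wild type for 214 tested genes (0.981%) and below for 287 (1.32%).

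The sum of the 4 rows asked whether the whole family differed, whichever row a read was counted in. The summed level was 196, 180, 145 and 156 CPM in labelled knockouts 1 to 4, and wild types 1 to 4 had 185, 179, 176 and 180 CPM. Labelled knockout 1 lay above all wild types, labelled knockouts 3 and 4 below all of them and labelled knockout 2 among them. The means were 169 ± 23.2 and 180.0 ± 3.94 CPM (SD, n = 4 each). With the 4 rows replaced by their sum in the table, the log2 difference was -0.09 (SE 0.11, 95% interval -0.34 to 0.16, or 0.792 to 1.11 times the wild-type level; edgeR adjusted p = 1.00, unadjusted 0.441). An exact two-sided permutation test of the summed CPM gave p = 0.371, where 4 libraries against 4 can reach 0.0286. The family sum did not differ beyond the spread between libraries, and the interval leaves room for a change of either sign within those bounds.

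Without labelled knockout 3 the family sum differed by -0.03 (SE 0.08, edgeR adjusted p = 0.850), and without labelled knockout 1 by -0.17 (SE 0.11, edgeR adjusted p = 1.00).

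The sum of the other 3 rows leaves out Rps26-ps1 and is almost wholly Rps26. Its level in labelled knockouts 1 to 4 was 184, 167, 134 and 143 CPM, with means of 157 ± 22.6 against 179 ± 3.95 CPM (SD, n = 4 each). The log2 difference was -0.19 (SE 0.11, 95% interval -0.44 to 0.06, or 0.736 to 1.04 times the wild-type level; edgeR adjusted p = 1.00, unadjusted 0.120), and the exact two-sided permutation test gave p = 0.114. Neither test passed the threshold of 0.05. In CPM, the mean of Rps26 was -22.4 apart between the groups and that of Rps26-ps1 11.6, so the sum differed by -10.8.

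The share of Rps26-ps1 in the family separated the groups where the total did not. Rps26-ps1 made up 6.36%, 7.24%, 7.56% and 7.99% of the family counts in labelled knockouts 1 to 4, with 95% exact (Clopper-Pearson) binomial intervals that ran from 5.66% at the lowest bound to 9.08% at the highest. In wild types 1 to 4 the share was 0.375%, 0.301%, 0.437% and 0.361%, with bounds from 0.156% to 0.682%. Intervals cover counting error only. The means were 7.29% ± 0.687 and 0.369% ± 0.0559 (SD, n = 4 each), and no interval of one group touched one of the other. There were 14.7, 12.8, 12.2 and 11.5 counts of Rps26 for each count of Rps26-ps1 in labelled knockouts 1 to 4, against 265, 331, 227 and 276 in wild types. The 95% intervals of the shares in labelled knockouts 1 and 4, the lowest and the highest of that group, overlapped. The share is not independent of the choice of the group and is given without a test.

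**Figure D3:**
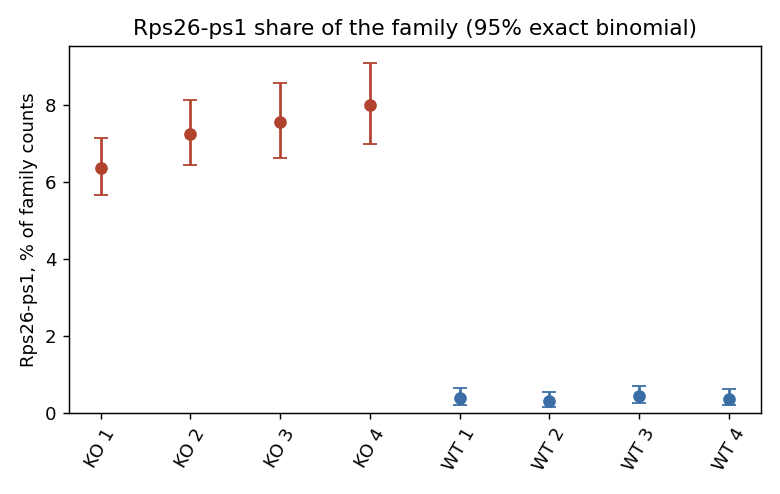
Share of Rps26-ps1 in the counts of the 4 rows (vertical axis, percent) for each library; KO is labelled knockout, WT wild type, and bars are 95% exact binomial intervals. The KO libraries lie between 6.36% and 7.99% and the WT libraries between 0.301% and 0.437%.

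The genes that lie over the copies were examined for a change in the same place. Rps26-ps1 lies within Wwp2, a ubiquitin ligase gene, on the other strand, and 0 of the Wwp2 transcripts have an exon over it. The Wwp2 level was 179, 154, 128 and 212 CPM in labelled knockouts 1 to 4. Wild types 1 to 4 had 187, 153, 164 and 168 CPM, a log2 difference of 0.00 (SE 0.15), and the groups overlapped. Gm6654 lies wholly within an exon of 1 retained-intron transcript of Med21, a Mediator subunit gene, on the other strand. Med21 stood at 30.2 ± 0.864 CPM in labelled knockouts and 31.4 ± 1.26 in wild types (SD, n = 4 each), a log2 difference of -0.06 (SE 0.09). Gm7392 overlaps no annotated gene.

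The tested genes nearest the members did not share the level of Rps26-ps1. Around the copy on chromosome 8, Nob1, an endonuclease of small-subunit maturation, differed by 0.02 (SE 0.13), the proteasome gene Psmd7 by 0.08 (SE 0.10) and Zfhx3 by 0.09 (SE 0.11), all log2. Around the parent on chromosome 10, the log2 difference was 0.17 (SE 0.09) for Pa2g4, -0.13 (SE 0.33) for Erbb3, -0.17 (SE 0.22) for Ikzf4 and -0.20 (SE 0.13) for Suox, the sulfite oxidase gene. None of these 7 passed the test. For Pa2g4 (99.5 ± 8.46 against 88.7 ± 2.93 CPM) and Suox (8.19 ± 0.302 against 9.40 ± 0.606 CPM) the groups did not overlap, as for 0.981% (higher) and 1.32% (lower) of all tested genes. Around Gm6654, the log2 difference was -0.06 (SE 0.15) for Tm7sf3, 0.37 (SE 0.37) for 4930479D17Rik and -0.14 (SE 0.15) for Stk38l. Around Gm7392 it was 0.19 (SE 0.20) for Stxbp6, 0.20 (SE 0.25) for Nova1 and -0.07 (SE 0.20) for Prkd1, and none of these passed either. The sign of several neighbours turned with 1 library. 4930479D17Rik was at -0.12 without labelled knockout 2 and at 0.63 without labelled knockout 3, and Erbb3 at 0.05 and -0.52 likewise. Nob1 was at -0.08 without labelled knockout 3, Tm7sf3 at 0.06 without labelled knockout 4 and Prkd1 at 0.05 without labelled knockout 1. Ak9 is also on chromosome 10, with 827 tested genes between it and Rps26.

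Rps26 was then set beside the other proteins of its subunit. Of 31 other small-subunit ribosomal protein genes measured, 0 passed the test in either direction by edgeR, against 0.0183% and 0% of all tested genes. Their log2 differences had a median of 0.05, against 0.01 over all tested genes, with 22 above 0 and 9 below. Rps26, at -0.19, was the third lowest of the 32. Rps3a1, which encodes eS1, a direct neighbour of eS26 in the subunit, was the lowest at -0.57 (SE 0.15, edgeR adjusted p = 0.947). Its level was 91.2, 95.3, 84.3 and 139 CPM in labelled knockouts 1 to 4, where wild types 1 to 4 had 140.1, 162, 152 and 153 CPM. It was the 1 gene of the 31 whose groups did not overlap, in labelled knockout 4 by a narrow margin, where 1.32% of all tested genes had every labelled knockout below every wild type and 0.981% above.

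The other protein neighbours of eS26 gave differences smaller in size than that of Rps3a1. Rps14, which encodes uS11, differed by 0.01 (SE 0.13), at 400.0 ± 67.3 against 396 ± 16.7 CPM (SD, n = 4 each). Rps28 differed by 0.12 (SE 0.27), a value that single libraries move. Wild type 1 stood at 97.2 CPM and the other wild types at 37.2 to 50 CPM, and without wild type 1 the difference was 0.50 (SE 0.19). Labelled knockout 1 stood at 83.6 CPM and the other labelled knockouts at 51.8 to 60.6 CPM. The difference was -0.06 without labelled knockout 1 and -0.04 without wild type 3. The genes with the next smallest p after Rps3a1 were Rps2, at -0.26 (SE 0.19), and Rps6, at 0.19 (SE 0.14). Labelled knockout 1 weighed on both. Rps2 stood at 88.9 CPM there and at 165 to 184 CPM in the other labelled knockouts, and without that library Rps2 differed by -0.08, Rps6 by 0.09 and Rps26 by -0.28, so the place of Rps26 in the order moves with it. The chaperone gene Tsr2 stood at 8.23 ± 1.85 and 8.44 ± 0.454 CPM (SD, n = 4 each), a log2 difference of -0.04 (SE 0.17) that was -0.22 without labelled knockout 3.

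**Figure D4:**
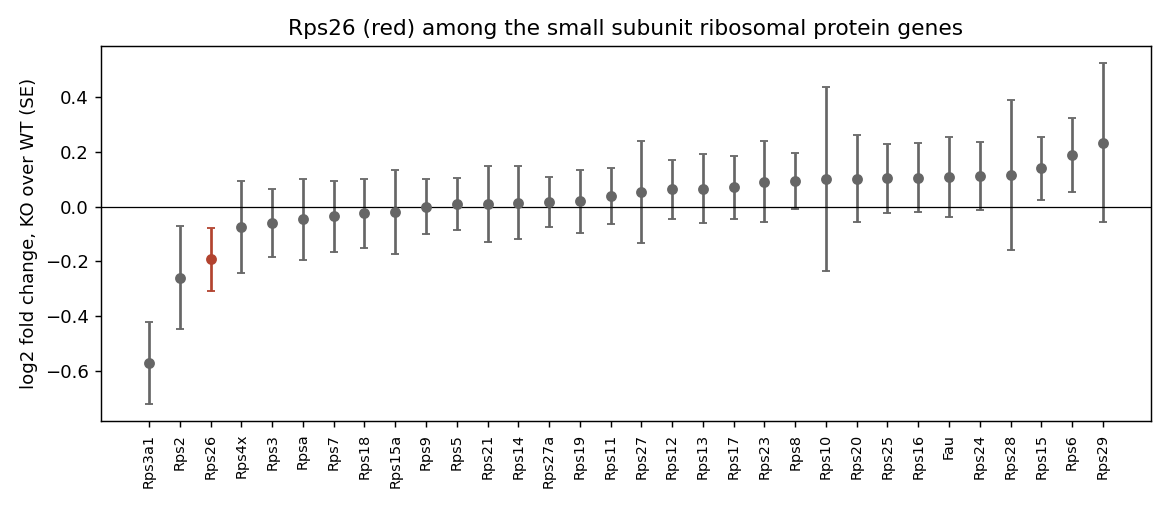
Log2 difference (vertical axis, KO over WT, that is labelled knockout over wild type) of Rps26 in red and of 31 other small-subunit ribosomal protein genes, with SE bars. Rps26 at -0.19 is at the low end, after Rps3a1 at -0.57 and Rps2 at -0.26.

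Of 15 genes for assembly and maturation of the small subunit that were matched, Tsr2 among them, 0 passed the test by edgeR. Their median was 0.01, with 10 above 0 and 5 below. For Ltv1 (50.3 ± 3.39 against 43.3 ± 1.76 CPM) and Dimt1 (12.4 ± 0.880 against 10.6 ± 0.151 CPM), every labelled knockout lay above every wild type, as it did for 0.981% of all tested genes. Of 4 paralogues of ribosomal proteins (Rps4l, Rps27l, Rpl10l, Rpl39l), 0 passed by edgeR, and their median was 0.09.

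Within each library, Rps26 was compared with the genes of its subunit, a measure that was chosen after the values were seen and has no test. The deviation of Rps26 from its wild-type mean in log2(CPM + 0.5), less the median deviation of the 31 other genes in that library, was -0.23, -0.16, -0.35 and -0.34 in labelled knockouts 1 to 4. In wild types 1 to 4 it was -0.03, 0.04, 0.03 and -0.05. On this scale labelled knockout 1, whose Rps26 level was that of a wild type, also lay below all wild types. Deviations were taken from the wild-type mean, which centres the wild types only. How many of the 31 other genes separate the groups in this way was not counted. By the rank of its deviation among the 32 genes, counted from the lowest, Rps26 did not separate the groups. Wild type 4 had rank 5, below labelled knockouts 1 (rank 8) and 2 (rank 6). Labelled knockouts 3 and 4 had rank 4 each, and wild types 1, 2 and 3 had ranks 10, 24 and 24. The deviation less the median deviation for the family sum was -0.17 ± 0.09 and 0.00 ± 0.04 (SD, n = 4 each). There the highest labelled knockout, at -0.06, lay next to the lowest wild type, at -0.05.

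**Figure D5:**
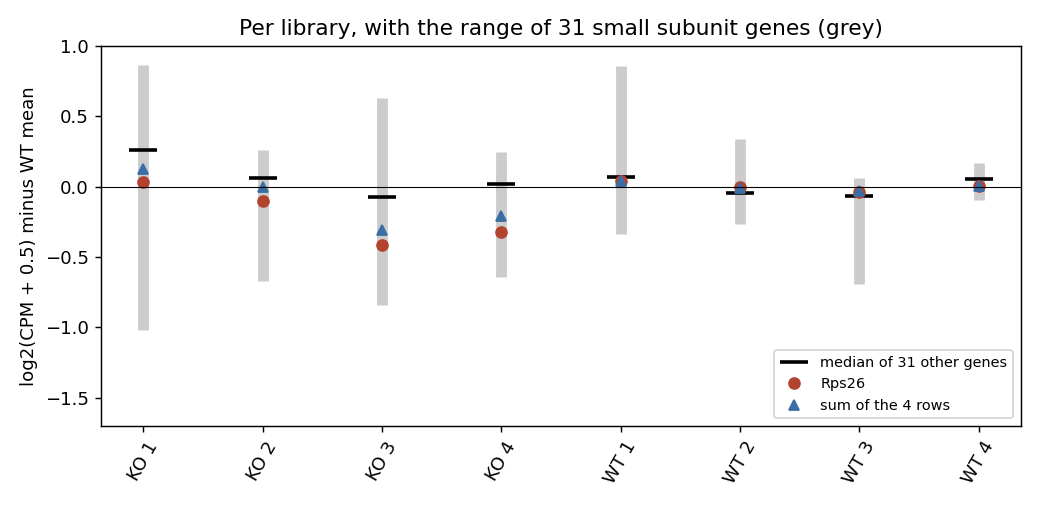
Deviation from the wild-type mean in log2(CPM + 0.5) (vertical axis) for each library, KO labelled knockout and WT wild type, for Rps26 and the family sum beside the range of 31 small-subunit genes in grey. Rps26 deviates by 0.04, -0.10, -0.42 and -0.33 in KO 1 to 4 and by -0.04 to 0.04 in the WT libraries.

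Other tested ribosomal protein pseudogenes named by a parent symbol and a -ps number did not share the size of the difference at Rps26-ps1. Copies with other kinds of symbol, as Gm6654 and Gm7392 have, were not in this list. Among 294 other named ribosomal protein pseudogenes, 72 had 0 counts in all libraries and 35 passed the low-count filter. Of the 35, 0 passed the test by edgeR, 24 had a log2 difference above 0 and 11 below, and the median was 0.19, against 0.01 over all tested genes. The range was -1.95 (SE 0.63) for Rpl15-ps2 to 0.76 (SE 0.33) for Rps10-ps2, which stood at 1.04 ± 0.375 against 0.610 ± 0.110 CPM (SD, n = 4 each). The groups did not overlap for 1 of the 35, Rps6-ps4, at 3.14 ± 0.377 against 2.54 ± 0.174 CPM, where 0.981% of all tested genes were separated in that direction. Summed over the 294, the level was 186, 108, 103 and 146 CPM in labelled knockouts 1 to 4 and 96.2 to 114 CPM in wild types.

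The genes whose levels ran most like that of Rps26-ps1 were sought by Pearson's r of log2(CPM + 0.5) over the 8 libraries, among 19025 genes. Since the libraries share their group, r mostly follows the difference between the groups, and it is given as a description. The closest was Gm7435 on chromosome 9 (r = 0.996), at 23.8 ± 4.88 CPM in labelled knockouts and 1.64 ± 0.154 in wild types. Slc26a10, a member of an anion transporter family on chromosome 10, followed (r = 0.987), at 20.1 ± 3.58 against 4.38 ± 0.704 CPM. Gm3402 (r = 0.982), Gm49725 (r = 0.973) and Gm47107 (r = 0.966) came next, with 1.98 ± 0.145 against 1.11 ± 0.0973, 16.4 ± 3.36 against 4.81 ± 0.677 and 22.0 ± 1.84 against 13.5 ± 1.22 CPM (SD, n = 4 each). Gm7435, Slc26a10 and Gm49725 passed the test over the whole table, while Gm3402 and Gm47107 did not (edgeR adjusted p = 0.906 and 0.154). Nothing is read from this, since r follows the same difference. None of these 5 lies on chromosome 8.

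The genes whose levels ran most like that of Rps26 itself were a different set. They were Glns-ps1 (r = 0.984), the calcium channel gene Cacna1e (r = 0.981), the transcription factor gene Lmx1a (r = 0.977), Gm12286 (r = 0.972) and Cyp4f14 (r = 0.970). Glns-ps1 stood at 1.96 ± 1.95 CPM in labelled knockouts and 4.43 ± 0.438 in wild types, and Cacna1e at 4.51 ± 2.39 and 6.84 ± 0.397 (SD, n = 4 each). As in Rps26, the SD of both was several times larger among labelled knockouts than among wild types. The choice by r favours this, since Rps26 itself varied mostly among labelled knockouts, and r is again only a description.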

How the data were processed

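The authors deposited raw counts per Ensembl gene for 8 adult testis libraries (TRIzol extraction, DNase, Illumina TruSeq RNA kit, per the labels' protocols). The submitters' processing notes name Trimmomatic, STAR, featureCounts and DESeq2 and the builds GRCm39 and mm39. Not given in the sources used here are versions, annotation release, strand setting, read length and the handling of reads with more than 1 match.

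Of 56748 gene rows, 52073 had a symbol and 0 columns lacked a sample. filterByExpr (minimum count 10, minimum total 15) left 21805 genes. After TMM scaling, groups were compared with edgeR 4.0.16 (quasi-likelihood, R 4.3.3, limma 3.58.1), with Benjamini-Hochberg adjustment over all tested genes and a threshold of 0.05. Log2 differences are labelled knockout over wild type. For sums, the rows were replaced by 1 summed row and the whole table was refitted. Exact permutation tests used summed CPM. A count of 0 was read as up to 3 counts. No 2 libraries of a group were copies of each other (chi-square per gene of at least 4.52). Scripts were tested on simulated data.

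Sequences and gene order came from GENCODE M21 transcripts (GRCm38), so no coordinates are given. Copies were sought with blastn 2.17.0 at 95% identity over 80% of the length. Named genes are the members, genes over or next to them, Tsr2, Rps14, Rps28, Rps3a1, the 3 small-subunit genes with the smallest p, the 5 genes most correlated with Rps26-ps1 and with Rps26, and Ak9. Others named (Ltv1, Dimt1, single epididymis markers and the named pseudogenes) were chosen after their values were seen. One gene that the naming rule takes is not reported here. Members and lists were chosen with earlier results of these data known. Alternatives were a replicate block, RLE size factors, other filters, DESeq2 1.42.0, limma-voom, other member sets and leaving out each library.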

Additional observations from a re-analysis of the deposited data

Results flagged for a closer look

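In 5 of 80 groups of 4 libraries, 1 library lay far from the other 3, and chance gives about 1 in 20 groups. Psmd7, next to Rps26-ps1, was 98.8 CPM in 1 labelled knockout, with the next at 85.4 CPM. Rps6 was 182 CPM in labelled knockout 1, with the next at 146 CPM. Gm7435, the gene closest in pattern to Rps26-ps1, was 16.5 CPM in 1 labelled knockout, with the next at 26.1 CPM, so that it varied more among labelled knockouts than Rps26-ps1 did. Among wild types, Cacna1e was 6.24 CPM in 1 library with the next at 7.0 CPM, and Cyp4f14 was 2.89 CPM in 1 library with the next at 2.56 CPM.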

How the results depend on the processing

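The log2 difference of the family sum was between -0.10 and -0.08 with DESeq2, limma-voom, RLE size factors, a floor of 1 CPM on the mean, no filter on low counts, Rps26 and Rps26-ps1 alone, the near-identical copies found by sequence, all related pseudogenes, and Med21 added. The last 2 were chosen after seeing the data. It ran from -0.17 to -0.03 with each library left out, and that of the other 3 rows from -0.28 to -0.14. No setting took the adjusted p of either sum under 0.05. That adjustment runs over all tested genes and is far stricter than a single test of a sum. It therefore does not show that the groups were alike in every setting. The sum of the other 3 rows was at its lowest without labelled knockout 1, at -0.28 (SE 0.11). Unadjusted p-values were not compared between settings. The count of genes past the threshold, 4 in the reported fit, was 26 with no low-count filter (16 higher, 10 lower) and 46 with DESeq2 (23 higher, 23 lower). It ran from 3 to 35 with a library left out: 33 without labelled knockout 1, 35 without labelled knockout 3 and 33 without labelled knockout 4. The cause was not tested. The mean share of Rps26-ps1 ran from 7.05% to 7.59% in labelled knockouts and from 0.346% to 0.391% in wild types.

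With the replicate number as a block, the family sum differed by -0.10, the sum of the other 3 rows by -0.20, and 4 genes passed. The numbers gave little sign of pairing: correlations of same-numbered libraries' deviations were 0.09, 0.04, -0.03 and 0.03, and 2 of 4 libraries correlated best with their own number. Whether libraries of the same number share an effect on single genes was not tested. At 12 to 19 counts of Rps26-ps1 per wild type, depth limits the precision of its wild-type level.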

Other observations

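A search by sequence found 12 further pseudogenes related to Rps26 that are less alike than the 3 copies above. Of these, 9 had 0 counts in all libraries, and none had more than 8 counts in a library. Summed over the 12, there were 19 counts in the labelled knockouts and 26 in the wild types. Beside the members' copies, the search at 95% identity found Med21, through the transcript that contains Gm6654.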
